A study of Mus musculus with 16 samples.

Results

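Genes that handle iron, heme and oxygen were followed in mouse hamstring muscle 2 days after spinal cord injury. The 10 genes were Hmox1, Hp, Cd163, Tfrc, Slc40a1, Slc11a1, Cp, Fth1, Ftl1 and Mb, and their members were all array probes whose gene symbol in the deposited intensity table equals one of these names. That gave 19 of the 25697 probes of an Illumina expression BeadChip, on which each probe is a 50-base sequence. Of these, 17 probes for 9 genes were detected (detection p under 0.05) on at least 3 arrays and entered the tests, out of 14763 such probes in all. The remaining 2 probes, the only one for Ftl1 and 1 of the 2 for Cd163, were detected on 0 of 16 arrays.

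The 16 arrays came from female mice in 4 groups of 4, with strain and age not named in the labels. SCI+CDTX mice had a spinal cord injury (SCI) at thoracic level and cardiotoxin (CDTX), a venom toxin used to kill muscle fibres, injected into the muscle. SCI+Saline mice had the cord injury and a saline injection, Sham+CDTX mice had sham surgery and cardiotoxin, and Sham+Saline mice had sham surgery and saline. The series design names SCI+CDTX as the only group in which neurogenic heterotopic ossification, bone formed inside muscle after a nervous system lesion, develops. Whether each array is a separate animal is not stated beyond the sample titles, so p-values measure the spread between these samples.

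When muscle fibres and red cells break, myoglobin, hemoglobin and their heme are set free. Haptoglobin (Hp) binds free hemoglobin, the macrophage receptor Cd163 takes up the complex, and heme oxygenase 1 (Hmox1) splits heme into iron, carbon monoxide and biliverdin. The iron is held in ferritin, built from heavy (Fth1) and light (Ftl1) chains, or leaves the cell through ferroportin (Slc40a1), with ceruloplasmin (Cp) oxidizing it on the way to transferrin. The transferrin receptor (Tfrc) brings transferrin iron into cells, Slc11a1 moves metal ions out of the phagosomes of macrophages, and myoglobin (Mb) holds oxygen in slow and oxidative muscle fibres.

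The probe sequences decide which transcripts the levels speak for, and 3 sets are shown for that reason, each by the first 30 of its 50 bases, from the deposited table. The Ftl1 probe begins at base 1 of its annotated transcript and matches the start of the RefSeq Ftl1 transcript at chr7:45459837-45459886 on the minus strand of GRCm38.p6, with the letters TATAAA, in capitals, beginning at its base 18.
Ftl1 ILMN_2816707: ccggagggtcaacatgcTATAAAaggagcg
The letters TATAAA occur on either strand in 4473 of 32851 RefSeq promoter windows (13.6%), which run from 250 bases before to 50 after a start site, and after the start on the gene's own strand in 227 of them (0.691%). Light-chain ferritin is therefore read here only by a probe on the extreme 5′ end of the transcript. The 2 Cd163 probes lie at bases 4309 and 3847 of the annotated transcript, and only the first was detected.
Cd163 ILMN_2964560: gaggtgaaaagctagttgggaacttatgtg
Cd163 ILMN_2627340: cgtttttagggtttcgtgaatataaaataa
For Hp, 2 of the 3 probes are shifted copies, offset by 9 bases, that share 41 of their 50 bases, so they are close to 1 measurement. Capitals mark the shared part within the stretch shown.
Hp ILMN_2668509: ctgttgtcaCTCTCCTGCTCTGGGGTCAGC
Hp ILMN_2668510: CTCTCCTGCTCTGGGGTCAGCtttttgctg

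Levels below are log2 intensities after background correction and quantile normalization of the 15 arrays that the authors kept in their final analysis. The labels state that SCI+CDTX 2 was excluded, so SCI+CDTX has 3 arrays. Its values, from a normalization of all 16 arrays, are given where they matter. A probe was called where limma's Benjamini-Hochberg adjusted p over all 14763 probes was under 0.05. All SCI arrays lay on one slide and all sham arrays on the other, so in the comparisons of SCI with sham the surgery and the slide cannot be told apart. The comparisons of CDTX with saline lie within a slide, and in the interaction, the effect of CDTX after SCI minus its effect after sham surgery, a slide difference cancels on the log scale. Probes detected per array ranged from 11114 to 13694. All 10 of 10 muscle fibre markers were detected on all 16 arrays, while the hepatocyte markers Alb, Ttr and Apoa1 were detected on 0, so the levels of Hp and Cp were read in RNA with no detected liver signal. In whole muscle, fewer cells of a type and less RNA per cell cannot be told apart.

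Cardiotoxin moved most of these probes after either surgery. In SCI+CDTX against SCI+Saline, 12 of 17 probes were called, 9 higher (4 genes) and 3 lower (2 genes), where 42.9% of all tested probes were called, 20.4% higher and 22.5% lower. The groups did not overlap for 13 of the 17, against 45.9% of all probes. In Sham+CDTX against Sham+Saline, 13 of 17 were called, 8 higher and 5 lower, against 48.9% of all probes, 23.1% higher and 25.8% lower, and 13 of 17 did not overlap, against 45% of all. In SCI+CDTX against Sham+CDTX, 9 of 17 were called, 4 higher and 5 lower, against 29.8% of all probes (14.9% in each direction), and 11 did not overlap, against 42.6%. In SCI+Saline against Sham+Saline, 6 of 17 were called, 2 higher and 4 lower, against 29.5% of all probes (14.8% higher and 14.6% lower), and 6 did not overlap, against 23.5%. Both of these last shares are near the background. The interaction called 7 of 17, 6 higher and 1 lower, against 23.6% of all probes (12% higher and 11.6% lower). With median scaling, which moved the median interaction of all probes to -0.24, it called 3 higher and 4 lower. The median log2 fold change of the 17 probes was 1.20, 0.38, 0.11, 0.07 and 0.05 in these 5 comparisons, and that of all tested probes lay between -0.05 and 0.01. The 2 arms of the interaction, and comparisons that name a group in common, share that group's arrays. Several probes read the same gene, so the probe counts are not counts of independent measurements.

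**Figure D1:**
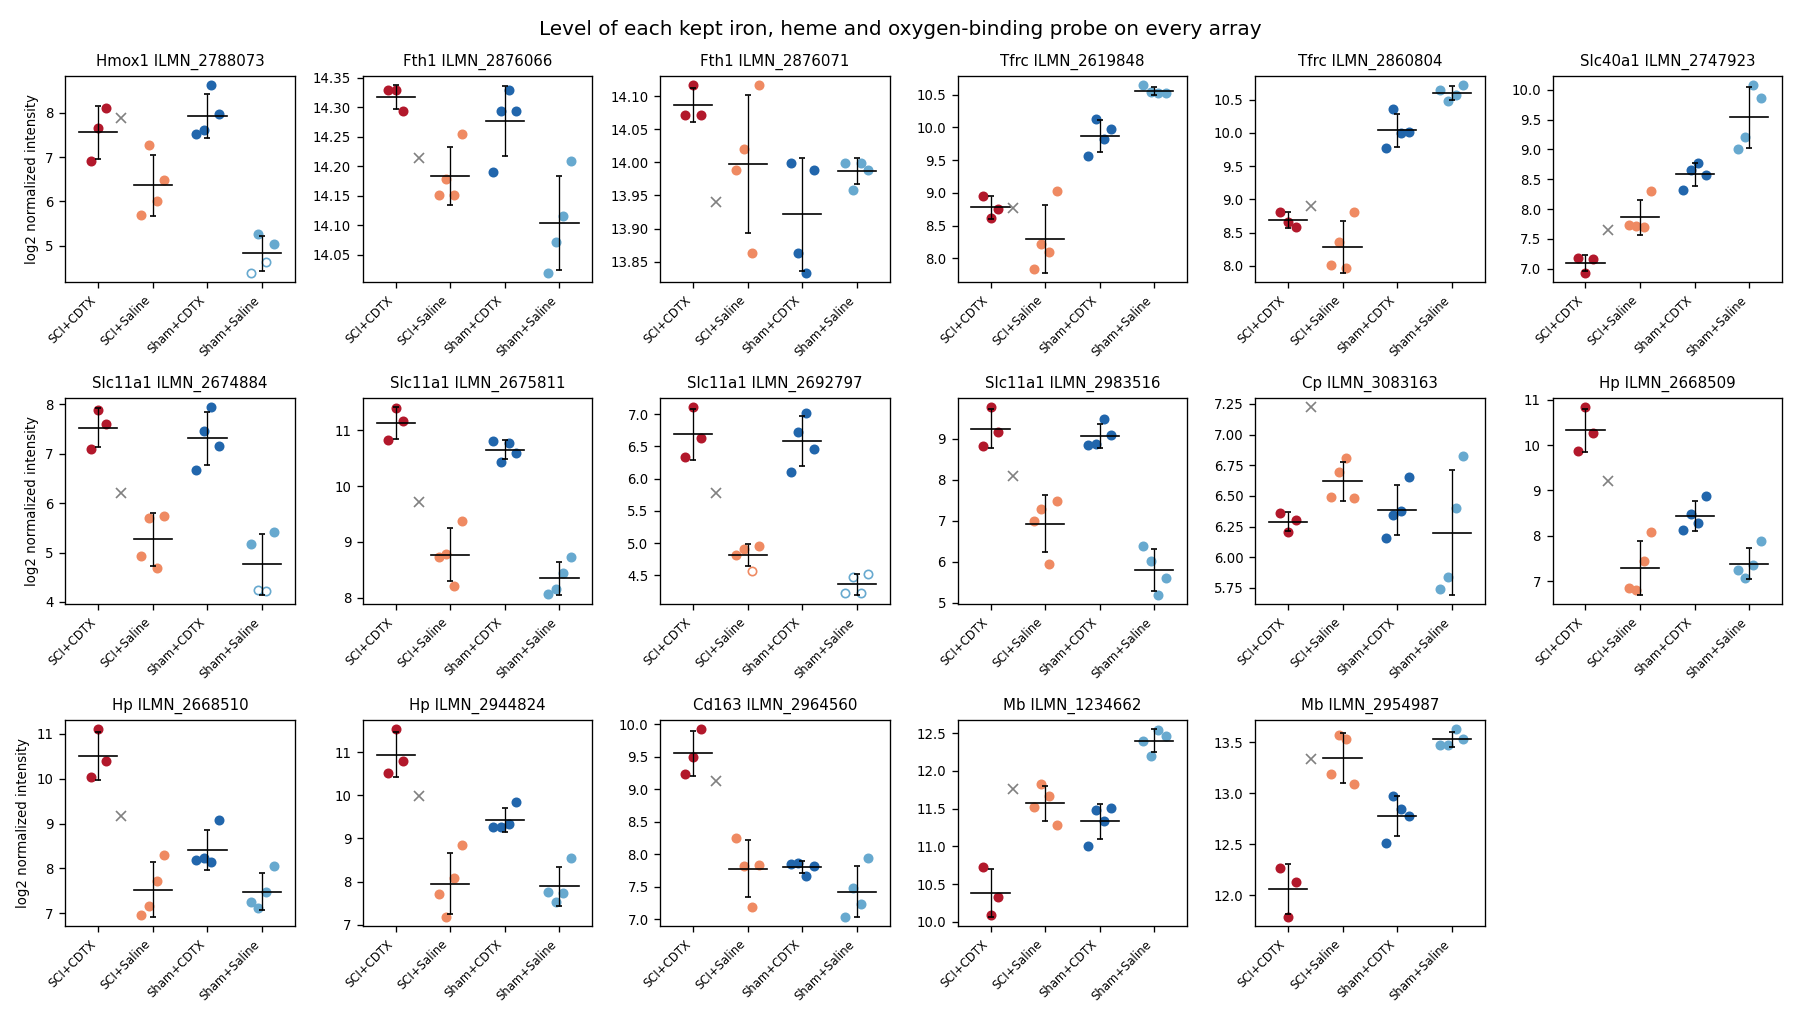
Log2 normalized intensity (y axis, a separate scale for each panel) of the 17 tested probes on every array, by group (x axis). Dots are arrays, hollow where the probe was not detected, the line and bar are the mean ± SD, and the grey cross is SCI+CDTX 2 from the 16-array normalization. The 3 SCI+CDTX arrays stand above all 12 others for Hp and Cd163, while Tfrc and Slc40a1 are highest in Sham+Saline.

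Among the genes of heme scavenging, Hp and Cd163 were highest in SCI+CDTX. Hp probe ILMN_2668509 stood at 9.88, 10.26 and 10.83 in SCI+CDTX and at 6.81, 6.84, 7.45 and 8.07 in SCI+Saline. In Sham+CDTX it stood at 8.13, 8.28, 8.47 and 8.89, and in Sham+Saline at 7.07, 7.24, 7.36 and 7.87. The SCI+CDTX arrays lay above all others, the Sham+CDTX arrays lay above both saline groups, and the saline groups overlapped. Hp rose 8.15-fold with cardiotoxin after SCI (log2 fold change 3.03 ± 0.29 SE, limma adjusted p = 7.96e-07) and 2.08-fold after sham surgery (1.06 ± 0.27, limma adjusted p = 0.00286). The interaction was 1.97 ± 0.39 (limma adjusted p = 0.0013). SCI+CDTX also exceeded Sham+CDTX by 1.88 ± 0.29 (limma adjusted p = 8.05e-05), while the saline groups differed by -0.09 with a 95% interval from -0.65 to 0.47. For cardiotoxin after SCI, cardiotoxin after sham surgery, SCI+CDTX against Sham+CDTX and the interaction, the overlapping probe ILMN_2668510 gave 2.98, 0.94, 2.09 and 2.04, all called. The separate probe ILMN_2944824 gave 2.99, 1.54, 1.51 and 1.45 in that order, also all called.

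Parts of the Hp result rested on single arrays or on the scaling and filter. SCI+CDTX 2, the excluded array, was at 9.20, 9.17 and 9.99 for the 3 probes, below the other arrays of its group and above every Sham+CDTX array. Including it kept the interaction of the first 2 probes called and left ILMN_2944824 at 1.20 (limma adjusted p = 0.106). That probe's interaction was 0.84 with median scaling (limma adjusted p = 0.216), 1.45 with no detection filter (limma adjusted p = 0.0721) and 1.17 without SCI+CDTX 3 (limma adjusted p = 0.0777). Without Sham+CDTX 4 the effect of cardiotoxin after sham surgery on ILMN_2668510 was 0.71 (limma adjusted p = 0.0592).

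Cd163, read by the 1 detected probe, was higher in SCI+CDTX than in each other group. It stood at 9.23, 9.49 and 9.92 in SCI+CDTX, at 7.19, 7.82, 7.83 and 8.25 in SCI+Saline, at 7.67, 7.83, 7.85 and 7.86 in Sham+CDTX, and at 7.04, 7.24, 7.48 and 7.94 in Sham+Saline. The SCI+CDTX arrays did not overlap with any other group, and the other 3 groups overlapped with each other. The excluded array SCI+CDTX 2, at 9.13, also lay above all of them. Cd163 rose 3.42-fold over SCI+Saline (1.77 ± 0.23 SE, limma adjusted p = 1.07e-05) and 3.36-fold over Sham+CDTX (1.75 ± 0.23, limma adjusted p = 1.99e-05). Cardiotoxin after sham surgery gave 0.38 (95% interval -0.07 to 0.82, limma adjusted p = 0.159), and the interaction was 1.40 ± 0.32 (limma adjusted p = 0.00345). Without Sham+Saline 4 the sham effect was 0.54 (limma adjusted p = 0.0403), and with median scaling in place of quantile normalization it was 1.15 (limma adjusted p = 0.000305) and the interaction 0.78 (limma adjusted p = 0.0861).

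The macrophage markers were measured beside these genes, because Cd163 and the phagosomal Slc11a1 are known as macrophage genes. All 9 of 9 tested macrophage and monocyte markers rose with cardiotoxin after SCI (median log2 fold change 2.09), and all 9 rose after sham surgery (median 2.97). Their mean level per array was 9.21 to 9.82 in SCI+CDTX, 6.64 to 8.06 in SCI+Saline, 9.47 to 9.65 in Sham+CDTX and 6.58 to 7.18 in Sham+Saline. Between SCI+CDTX and Sham+CDTX, 2 of the 9 rose (Cd14 by 1.85 ± 0.28, Itgam by 0.43 ± 0.16) and 1, the mannose receptor Mrc1, fell by 1.02 ± 0.26. The median difference of the 9 between the cardiotoxin groups was -0.13, where Cd163 and Hp were apart. The part of cell numbers in the levels of Hp and Cd163 was not tested.

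Heme oxygenase 1 followed another order. Hmox1 stood at 6.92, 7.66 and 8.11 in SCI+CDTX and at 5.69, 6.0, 6.48 and 7.28 in SCI+Saline. It stood at 7.51, 7.60, 7.99 and 8.62 in Sham+CDTX, and at 4.39, 4.62, 5.04 and 5.26 in Sham+Saline, where it was detected on 2 of 4 arrays. The Sham+Saline arrays were below all others, the cardiotoxin groups overlapped, and SCI+Saline lay between, with 1 array inside the range of SCI+CDTX. Cardiotoxin raised Hmox1 8.60-fold after sham surgery (3.10 ± 0.32 SE, limma adjusted p = 3.1e-07) and 2.30-fold after SCI (1.20 ± 0.35, limma adjusted p = 0.00883). In saline muscle it was 2.90-fold higher after SCI than after sham surgery (1.54 ± 0.32, limma adjusted p = 0.00128), and SCI+CDTX against Sham+CDTX gave -0.37 (95% interval -1.09 to 0.36, limma adjusted p = 0.484). The interaction was -1.91 ± 0.47 (limma adjusted p = 0.00645), the one called interaction of the set below 0. Without SCI+CDTX 4 the effect of cardiotoxin after SCI was 0.93 (limma adjusted p = 0.0667), and without background correction the interaction was -0.87 (limma adjusted p = 0.0595).

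The 3 other genes whose brightest probe correlated most with Hmox1 over the 15 arrays were Casp4 (r = 0.972), Rrm2 (r = 0.957) and Atp6v1h (r = 0.951). These correlations include the group differences themselves.

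The iron importer and the iron exporter were both lower in SCI muscle than in sham muscle. Tfrc probe ILMN_2619848 stood at 10.52, 10.53, 10.54 and 10.64 in Sham+Saline and at 9.56, 9.82, 9.98 and 10.13 in Sham+CDTX. It stood at 8.62, 8.76 and 8.95 in SCI+CDTX, and at 7.83, 8.09, 8.22 and 9.03 in SCI+Saline. The sham groups did not overlap with each other or with the SCI groups, and the 2 SCI groups overlapped. Against sham surgery it was 4.80-fold lower after SCI in saline muscle (-2.26 ± 0.20 SE, limma adjusted p = 1.47e-07) and 2.14-fold in cardiotoxin muscle (-1.10 ± 0.21, limma adjusted p = 0.000733). Cardiotoxin after sham surgery lowered it 1.61-fold (-0.68 ± 0.20, limma adjusted p = 0.00781), whereas after SCI it gave 0.48 (limma adjusted p = 0.0783). The interaction was 1.17 ± 0.29 (limma adjusted p = 0.00706). The second probe, ILMN_2860804, gave -2.32, -1.35, -0.56 and 0.40 for these effects and 0.97 for the interaction, on the same side of the threshold in each case.

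The cardiotoxin effect on Tfrc depended on the scaling and on 1 array. With median scaling the sham effect was -0.26 and -0.14 for the 2 probes (limma adjusted p = 0.345 and 0.56), where the median of all probes moved to 0.32, and the SCI effect was 0.64 and 0.56 (limma adjusted p = 0.0363 and 0.0338). The interaction of ILMN_2860804 was 0.70 there (limma adjusted p = 0.0631), with the median of all probes at -0.24. Without SCI+Saline 4, the highest array of its group, the SCI effect was 0.72 and 0.57 (limma adjusted p = 0.00172 and 0.00929).

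Slc40a1, ferroportin, stepped down across the 4 groups. It stood at 9.01, 9.21, 9.87 and 10.07 in Sham+Saline, at 8.32, 8.57, 8.66 and 8.77 in Sham+CDTX, at 7.70, 7.71, 7.74 and 8.30 in SCI+Saline, and at 6.93, 7.17 and 7.18 in SCI+CDTX. No 2 neighbouring groups overlapped. SCI+CDTX 2, at 7.65, lay above the other arrays of its group and below SCI+Saline. Slc40a1 was 3.20-fold lower after SCI than after sham surgery in saline muscle (-1.68 ± 0.21 SE, limma adjusted p = 7.68e-06) and 2.80-fold in cardiotoxin muscle (-1.49 ± 0.22, limma adjusted p = 7.16e-05). Cardiotoxin lowered it 1.95-fold after sham surgery (-0.96 ± 0.21, limma adjusted p = 0.000808) and 1.70-fold after SCI (-0.77 ± 0.22, limma adjusted p = 0.00975). The difference between these effects was 0.19, with a 95% interval from -0.45 to 0.83. The cardiotoxin calls were lost with median scaling, at -0.35 after sham surgery (limma adjusted p = 0.274) and -0.48 after SCI (limma adjusted p = 0.183), and the latter also without SCI+CDTX 3, at -0.69 (limma adjusted p = 0.0519).

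Slc11a1 followed cardiotoxin. Its brightest probe, ILMN_2675811, stood at 10.82, 11.16 and 11.39 in SCI+CDTX and 10.44, 10.59, 10.77 and 10.81 in Sham+CDTX. In SCI+Saline it stood at 8.21, 8.72, 8.78 and 9.37, and in Sham+Saline at 8.07, 8.17, 8.45 and 8.72. Both cardiotoxin groups lay above both saline groups, and the saline groups overlapped. The rise was 5.11-fold after SCI (2.35 ± 0.22 SE, limma adjusted p = 7.96e-07) and 4.92-fold after sham surgery (2.30 ± 0.21, limma adjusted p = 7.92e-08). The 4 probes rose by 1.87 to 2.35 on the log2 scale after SCI, and 3 of them rose by 2.30 to 3.26 after sham surgery. These differences were all called. Of these 3 probes, ILMN_2674884 (2.54) was detected on only 2 of 4 Sham+Saline arrays, so its value rests in part on undetected levels. The fourth probe, ILMN_2692797, was not well above background on any Sham+Saline array, where it has only a bound. Its level in Sham+CDTX was at least 3.48-fold higher, as the ratio of the Sham+CDTX mean to the Sham+Saline mean after each array's value was raised to the lowest detected signal there. No interaction of the 4 probes was called, with the values between -0.95 and 0.05. That of ILMN_2983516 was called with median scaling (-1.30, limma adjusted p = 0.0236) and without SCI+Saline 3 (-1.27, limma adjusted p = 0.0175). In saline muscle this probe alone of the 4 was called, higher after SCI by 1.12 ± 0.30 (limma adjusted p = 0.0085). There ILMN_2675811 was called with median scaling (0.94, limma adjusted p = 0.00371), with each slide normalized separately (0.62, 0.0309) and without SCI+Saline 3 (0.60, 0.0301). In SCI+CDTX against Sham+CDTX it gave 0.47 (limma adjusted p = 0.129). That was called with each slide normalized separately (0.74, limma adjusted p = 0.0176) and with only the groups compared (0.47, 0.0274). SCI+CDTX 2 stood lower than the other SCI+CDTX arrays on all 4 probes, at 9.72 for ILMN_2675811.

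The genes most like Slc11a1 over the 15 arrays were Dab2 (r = 0.994), Kcnk13 (r = 0.993) and Litaf (r = 0.989), all chosen on the same arrays.

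Ceruloplasmin did not pass the test in any comparison, but did under some other settings. Cp stood at 6.20, 6.30 and 6.36 in SCI+CDTX, at 6.49, 6.49, 6.69 and 6.81 in SCI+Saline, at 6.16, 6.34, 6.38 and 6.65 in Sham+CDTX and at 5.74, 5.84, 6.40 and 6.82 in Sham+Saline. The Sham+Saline arrays spanned the range of all the others. SCI+Saline against Sham+Saline gave 0.42 (95% interval 0.01 to 0.83, limma adjusted p = 0.117), and the interaction was -0.51 (limma adjusted p = 0.218). The first was called without Sham+Saline 4 (0.63, limma adjusted p = 0.0109), with median scaling (0.75, limma adjusted p = 0.0107) and with each slide normalized separately (0.54, limma adjusted p = 0.0415). The interaction was called without Sham+Saline 4 (-0.72, limma adjusted p = 0.0399) and with median scaling (-0.89, limma adjusted p = 0.0389), which also called Sham+CDTX against Sham+Saline (0.94, limma adjusted p = 0.00109). The excluded SCI+CDTX 2 was the highest array of all, at 7.22.

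Heavy-chain ferritin was among the brightest signals on every array. Probe ILMN_2876066 ranked between 2 and 18 of all probes of an array by raw intensity, at 80.6% to 98.4% of the array's maximum, and ILMN_2876071 ranked between 12 and 30, at 69.8% to 81.8%. The group means of ILMN_2876066 were 14.32 ± 0.02 for SCI+CDTX (SD over 3 arrays) and, over 4 arrays each, 14.18 ± 0.05 for SCI+Saline, 14.28 ± 0.06 for Sham+CDTX and 14.10 ± 0.08 for Sham+Saline. Neither probe was called in any comparison, and the log2 fold changes lay between -0.07 and 0.17. Under 2 other settings ILMN_2876066 was called in Sham+CDTX against Sham+Saline. It was at 0.17 without background correction (limma adjusted p = 0.0105) and with no detection filter (limma adjusted p = 0.0272). The 2 probes did not move together over the 15 arrays (r = 0.13), unlike the pairs of probes of Tfrc, Slc11a1, Hp and Mb (r = 0.938 to 0.993). Quantile normalization gives all arrays the same set of values, so a level is set by the probe's rank on its array. ILMN_2876066 thus had the same level, 14.33, on SCI+CDTX 1, SCI+CDTX 3 and Sham+CDTX 3. This limits the fold changes and the correlation of the Fth1 probes. With median scaling Sham+CDTX against Sham+Saline gave -0.08 and -0.23 (limma adjusted p = 0.545 and 0.0941). How far levels this close to the top of the intensity range can still show a change was not tested. In the authors' deposited table, which scales arrays by their average, the group means of ILMN_2876066 were 20068.4, 18010, 16900.3 and 22833.5 in the same order, with Sham+Saline the highest.

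Light-chain ferritin gave no signal. The Ftl1 probe, the one on the transcript's first bases, had raw intensities of 85.4 to 102.7 on the 15 arrays and was detected on none of the 16. The 2 probes for Ftl2, which RefSeq lists as the pseudogene Ftl2-ps, had intensities of 87 to 105.7 and were likewise detected on 0 arrays. No level of light-chain ferritin can be read from these probes, and its absence in the muscle does not follow.

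Myoglobin fell with cardiotoxin. Its 2 probes read different parts of the transcript, from base 503 and base 874 of the annotated sequence, and are shown because they differ in saline muscle.
Mb ILMN_1234662: tgaagtcctgaagaagagacattccgggga
Mb ILMN_2954987: gggaaaatctcttttccactgtcacatttg
The brighter probe, ILMN_2954987, stood at 11.79, 12.13 and 12.27 in SCI+CDTX and 12.51, 12.78, 12.85 and 12.97 in Sham+CDTX. In SCI+Saline it stood at 13.09, 13.19, 13.53 and 13.57, and in Sham+Saline at 13.48, 13.48, 13.53 and 13.62. The cardiotoxin groups were apart from each other and below both saline groups, which overlapped. Cardiotoxin lowered it 2.43-fold after SCI (-1.28 ± 0.16 SE, limma adjusted p = 8.39e-06) and 1.68-fold after sham surgery (-0.75 ± 0.15, limma adjusted p = 0.00042). The other probe gave -1.19 ± 0.18 (limma adjusted p = 4.18e-05) and -1.07 ± 0.17 (limma adjusted p = 3e-05). No interaction was called, at -0.53 and -0.12, but that of ILMN_2954987 was with median scaling (-0.83, limma adjusted p = 0.00877) and without SCI+Saline 4 (-0.62, limma adjusted p = 0.0492).

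The SCI and sham groups differed less evenly for myoglobin. From sham to SCI in saline muscle the probe at base 503 fell by 0.83 on the log2 scale (SE 0.17, limma adjusted p = 0.000889) and the probe at base 874 gave -0.18 (95% interval -0.50 to 0.14). The first of these was -0.36 with median scaling (limma adjusted p = 0.161). In cardiotoxin muscle both probes fell, by 0.95 ± 0.18 and 0.71 ± 0.16 (limma adjusted p = 0.000556 and 0.00274). SCI+CDTX 2 was at 11.76 and 13.33, more than any other array of the cardiotoxin groups, and with it included the differences were -0.60 and -0.40 (limma adjusted p = 0.111 and 0.271).

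Muscle fibre markers were counted beside myoglobin. Of 10 fibre markers, 1 fell (Myh2, by 0.65 ± 0.21) and none rose with cardiotoxin after SCI, and 1 fell (Myh2, by 0.94 ± 0.19) and 2 rose (Myh1, Myh4) after sham surgery. The list's mean level per array was 13.31 to 13.49 in SCI+CDTX, 13.31 to 13.50 in SCI+Saline, 13.51 to 13.69 in Sham+CDTX and 13.63 to 13.75 in Sham+Saline. These levels are not far below those of Fth1, and how far they can still show a change was not tested either. In SCI against sham, 2 of the 10 fell, 0 rose and 8 were not called, in saline muscle and again in cardiotoxin muscle. Of all tested probes 29.5% and 29.8% were called there, and the list medians were -0.09 and 0.11. Among those that fell was Myh2, the myosin of fast oxidative fibres, by 1.83 ± 0.19 in saline muscle and by 1.54 ± 0.21 in cardiotoxin muscle. The genes most like Mb over the 15 arrays were Tuba8 (r = 0.978), LOC100046918 (r = 0.968) and Osgepl1 (r = 0.968).

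**Figure D2:**
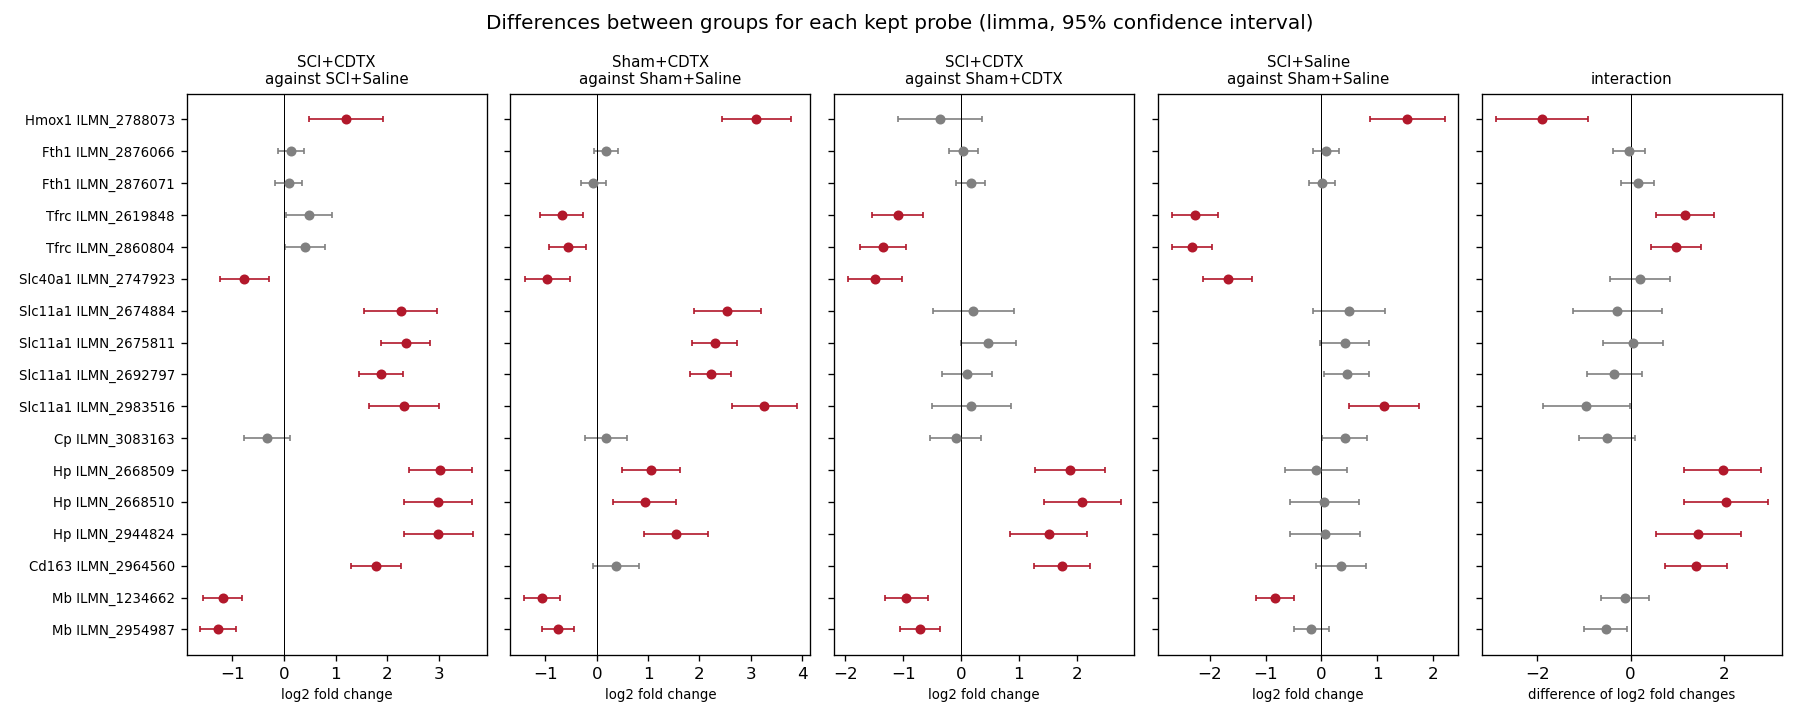
Log2 fold change (x axis) of each tested probe in the 4 comparisons and the interaction, as the difference of log2 fold changes, with the 95% confidence interval from limma. Red marks an adjusted p under 0.05. Hp and Cd163 lie to the right and Hmox1 to the left of 0 in the interaction, and the Fth1 intervals include 0 throughout.

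Red cells and neutrophils carry heme and haptoglobin into tissue, so their markers were read as well. Of 5 tested erythroid markers, none was called in any of the 5 comparisons. Their mean level per array was 6.77 to 7.40 in SCI+CDTX, 7.36 to 8.79 in SCI+Saline, 6.83 to 7.30 in Sham+CDTX and 6.99 to 9.31 in Sham+Saline. Of 7 neutrophil markers, Csf3r and Retnlg rose with cardiotoxin after both surgeries and S100a8 rose in SCI+Saline over Sham+Saline (4.74 ± 1.17), and no interaction was called. The neutrophil list stood at 6.80 to 7.21 in SCI+CDTX, 5.52 to 8.70 in SCI+Saline, 5.68 to 6.15 in Sham+CDTX and 4.46 to 8.60 in Sham+Saline. Both lists were highest on SCI+Saline 4 (8.79 and 8.70) and Sham+Saline 4 (9.31 and 8.60), the arrays that were also the highest saline arrays of their groups for all 3 Hp probes. All 5 tested B and T lymphocyte markers rose in SCI+CDTX over SCI+Saline and over Sham+CDTX (medians 1.08 and 0.84), as Cd163 did. Of all tested probes 20.4% and 14.9% rose there. Cd3e, Cd3g and Cd2 were each detected on only 5 of 16 arrays. The list's mean level was 4.34 to 4.69 in SCI+Saline, where the lowest detected signal of an array was 4.57 to 4.77. Markers this dim can pass the detection filter through the group where they are high, so the count of rises is partly set by the filter. Of 5 adipocyte markers, 4 rose in SCI+CDTX over Sham+CDTX and 1, Lep, over SCI+Saline. With cardiotoxin after sham surgery 4 of the 5 fell (median -0.77), and Lep fell in SCI+Saline against Sham+Saline by 1.44 ± 0.28. The part of all these cell types in the results for the iron and heme genes was not tested.

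Other genes of these pathways were counted by list, 1 probe a gene. The iron transport and storage list held 22 tested genes of 30 symbols. Cardiotoxin raised 4 and lowered 4 of them after SCI, and raised 5 and lowered 3 after sham surgery, shares no higher than the 42.9% and 48.9% of all tested probes. The metalloreductases Steap1 and Steap2 rose after SCI (1.30 ± 0.20 and 1.23 ± 0.17) and after sham surgery (1.77 ± 0.19 and 1.10 ± 0.15). Steap1 was detected on 11 and Steap2 on 8 of 16 arrays, so these values rest in part on undetected levels. Hfe2, the muscle gene for hemojuvelin, a co-receptor in hepcidin control, fell after both (-1.34 ± 0.29 and -1.08 ± 0.27). Aco1, an iron regulatory protein, rose after sham surgery by 1.01 ± 0.18, and the mitochondrial iron carrier Slc25a28 fell there by 1.27 ± 0.13. Between SCI and sham, 2 genes rose and 0 fell in cardiotoxin muscle, namely the siderophore-binding protein Lcn2 (2.54 ± 0.59) and Slc25a28 (1.73 ± 0.14). In saline muscle 4 rose and 0 fell, led by Lcn2 (2.64 ± 0.55) and Hamp2 (0.93 ± 0.15, detected on 9 of 16 arrays). Both counts are smaller shares of the 22 genes than the 29.8% and 29.5% of all tested probes called in these comparisons. The list's median log2 fold change lay between -0.01 and 0.08 in the 4 comparisons.

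The heme list, of synthesis, transport and breakdown, held 19 tested genes of 21 symbols. Cardiotoxin raised 5 and lowered 4 after SCI, and raised 3 and lowered 7 after sham surgery, against 42.9% and 48.9% of all tested probes called in either direction, so both counts are near the background. The genes that rose most after SCI were Lrp1, a receptor that takes up heme bound to hemopexin (2.21 ± 0.24), the biliverdin reductase Blvra (1.14 ± 0.16) and the heme transporter Slc48a1 (1.08 ± 0.18). The genes that fell most were the synthesis enzyme Uros (-1.0 ± 0.18), Bach1, the repressor of Hmox1 (-0.75 ± 0.22), and Abcb6 (-0.75 ± 0.15). After sham surgery Abcb6 (-1.05 ± 0.14), Fech, the last enzyme of heme synthesis (-0.97 ± 0.21), and Alas1, the first (-0.96 ± 0.15), fell most, and the biliverdin reductase Blvrb rose most (1.36 ± 0.19). Lrp1, Blvra and Slc48a1 rose in SCI+CDTX over Sham+CDTX too (1.63 ± 0.24, 0.85 ± 0.16 and 0.93 ± 0.18). Of the 19 interactions, 5 were called above 0 and 2 below, against 12% and 11.6% of all probes, and 12 were not called. The 3 highest were Lrp1 (1.54 ± 0.32), Alas1 (1.29 ± 0.23) and Alad (1.21 ± 0.22).

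The Nrf2 list, the antioxidant genes among which Hmox1 is usually counted, differed between SCI and sham mice. Of its 15 symbols, 13 genes were tested. In SCI+Saline over Sham+Saline 8 of the 13 rose and 0 fell, where 14.8% of all tested probes rose and 14.6% fell. The list's median log2 fold change there was 1.06, against -0.01 for all tested probes. The 3 highest were Gclm, a subunit of the enzyme that starts glutathione synthesis (2.31 ± 0.23 SE, limma adjusted p = 5.2e-07), the sulfiredoxin Srxn1 (1.61 ± 0.15, limma adjusted p = 3.33e-07) and Mafk, a partner of Nrf2 (1.55 ± 0.16, limma adjusted p = 1.39e-06). In cardiotoxin muscle 6 rose and 0 fell, against 14.9% of all probes in each direction, led by the thioredoxin reductase Txnrd1 (1.25 ± 0.20). Cardiotoxin after SCI raised 1 (G6pdx, 1.26 ± 0.18) and lowered 7, the lowest being Gclm (-1.57 ± 0.24), Mafk (-1.33 ± 0.18) and Nqo1 (-1.15 ± 0.23). In that comparison 20.4% of all probes rose and 22.5% fell. After sham surgery cardiotoxin raised 2 and lowered 2, where 23.1% of all probes rose and 25.8% fell. Hmox1 thus rose where cardiotoxin was added to SCI, and Gclm and Mafk fell there. Of the globins, 5 of 12 symbols were tested, and 1, cytoglobin (Cygb), was called in 1 comparison, where it rose by 0.61 ± 0.22 in SCI+Saline over Sham+Saline.

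**Figure D3:**
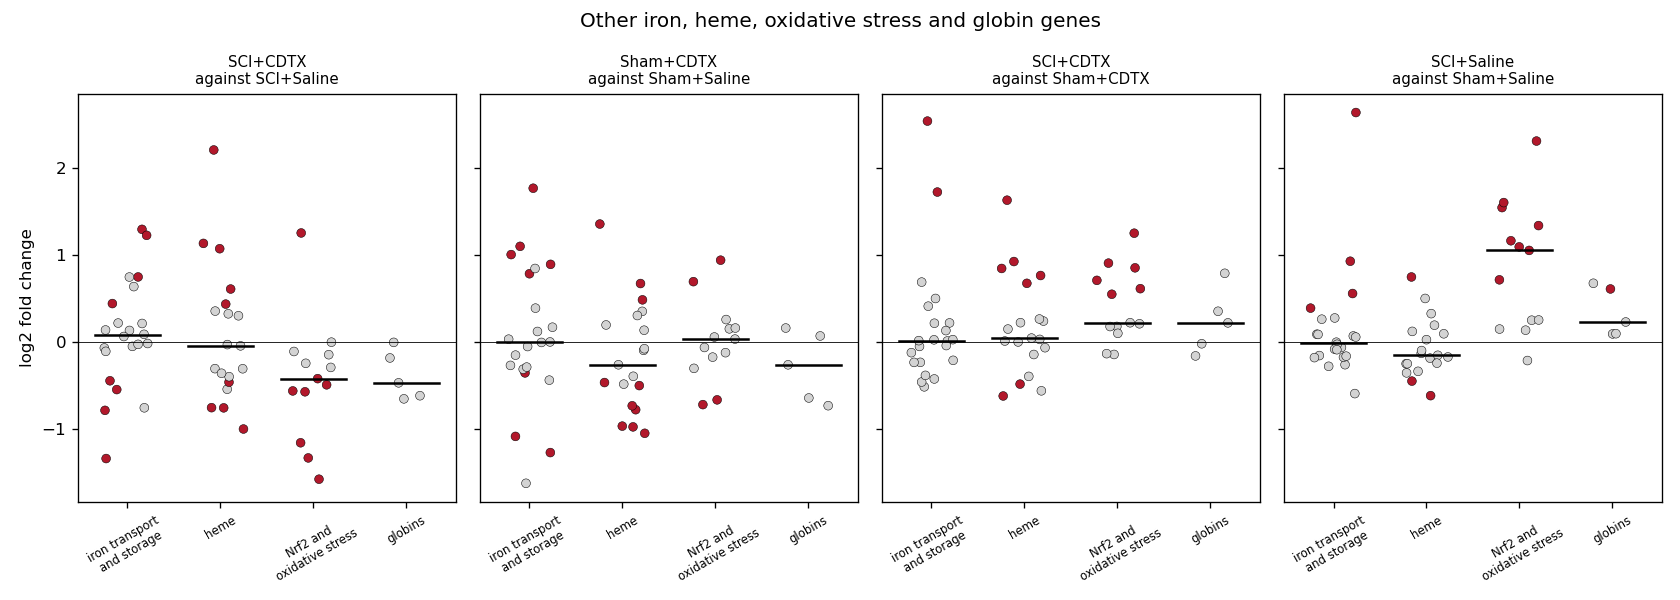
Log2 fold change (y axis) of the other iron, heme, Nrf2 and globin genes, 1 dot a gene, in the 4 comparisons. Red dots are genes with a limma adjusted p under 0.05 and the line is the median of the list. The Nrf2 list has 8 of 13 genes higher in SCI+Saline than in Sham+Saline (14.8% of all tested probes). It has 7 of 13 lower in SCI+CDTX than in SCI+Saline (22.5% of all).

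Another measure of the arrays moved with the contrast between the cardiotoxin groups. Over 1535 genes with 2 probes detected on all 16 arrays, the differences between the 2 probes were summarised by their first principal component, which held 41.2% of the variance. This probe difference score was 13.6 to 15.8 on the 4 Sham+CDTX arrays, 12.5 on SCI+CDTX 2, and -9.60 to -1.28 on the other 11 arrays. With all 16 arrays and the score as a covariate, 2 member probes were called in SCI+CDTX against Sham+CDTX, where 3.35% of all probes were. These were Cd163, higher by 1.40 (limma adjusted p = 0.039), and Tfrc ILMN_2860804, lower by 1.12 (limma adjusted p = 0.0336). The 3 Hp probes were then at 0.52, 0.52 and 0.26 with adjusted p of 0.598, 0.651 and 0.848, and the Mb probes were above 0, at 0.51 and 0.58 (limma adjusted p = 0.336 and 0.242). Of the interactions, 1 was called with the score, Mb ILMN_1234662 at 1.43 (limma adjusted p = 0.0406), and none of the 7 called without it was. The share of all probes with a called interaction was 0.695% with the score and 23.6% in the fit of 15 arrays, so calls were lost across the array. Hmox1 stood at -1.51 (limma adjusted p = 0.295) and Cd163 at 1.03 (limma adjusted p = 0.302). The Tfrc interactions were 1.07 and 1.21 (limma adjusted p = 0.229 and 0.119), where they were 1.17 and 0.97 without the score. ILMN_2619848 in SCI+CDTX against Sham+CDTX was -1.18 with the score (limma adjusted p = 0.0524) and -1.10 without it. With the score, the effect of cardiotoxin after SCI called 12 member probes as before, against 43.1% of all probes. That after sham surgery called 11, against 30.6% of all, without the 2 Tfrc probes (-0.59 and -0.79, limma adjusted p = 0.249 and 0.0707). Values of the pathway and marker list genes with the score were not examined. Since the score nearly coincides with Sham+CDTX, its part and that of the group cannot be told apart on these arrays.

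**Figure D4:**
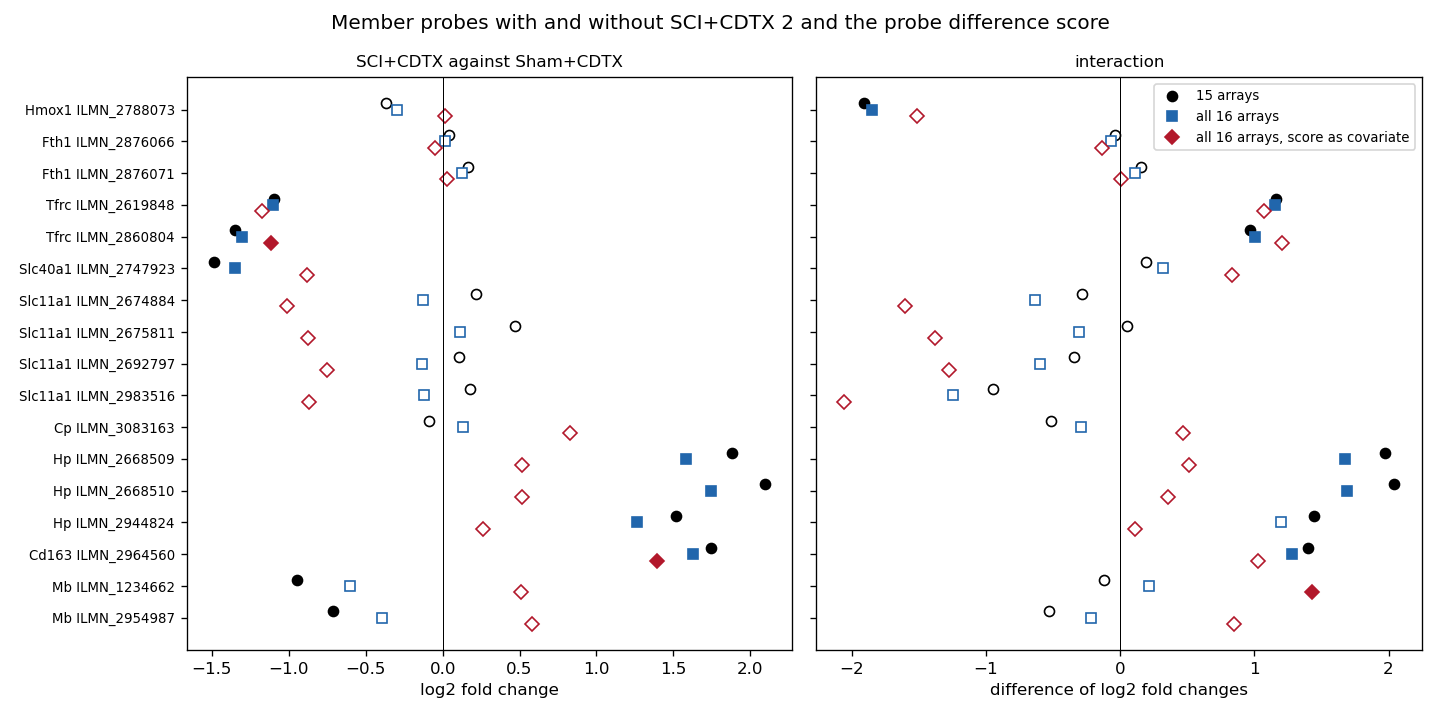
Log2 fold change of SCI+CDTX against Sham+CDTX, and the interaction (x axes), for each tested probe under 15 arrays, all 16 arrays, and all 16 arrays with the probe difference score as a covariate. Filled symbols have a limma adjusted p under 0.05. With the score, Cd163 and 1 Tfrc probe remain filled in the first panel. The values of Mb, Slc11a1, Cp, Hmox1 and Fth1 ILMN_2876066 lie on the other side of 0 there than with 15 arrays.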

How the data were processed

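The authors deposited a table of mean bead intensity per probe and array with detection p-values, made without normalization or background subtraction, per the file headers (GSGX version 1.9.0, GenomeStudio 2011.1 per the submitters' processing notes). The authors also deposited intensity tables after average normalization and background subtraction, with a difference p-value per group against SCI+CDTX whose correction is not given in the sources used here. The build behind the probe annotation is likewise not given there, and 0 per-sample columns were left unused. Per the labels' protocols, RNA was taken up in Trizol and turned into biotin-labelled cRNA (Ambion MessageAmp).

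Intensities of 15 arrays were background-corrected from the detection p-values (neqc), given an offset of 16, quantile normalized and set to log2, with limma 3.58.1, data.table version 1.17.8 and R 4.3.3. The offset understates fold changes of dim probes. Probes were kept where 3 or more arrays had a detection p under 0.05 (14763 of 25697 probes, 10952 genes). Group means were fitted with lmFit and eBayes, and p-values adjusted by Benjamini-Hochberg over all kept probes. The fit was tested on simulated data. The number of arrays limits the precision.

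All probes of the 10 members are described. Of the other lists, the values given are of at most the 3 highest and 3 lowest called genes, the brightest kept probe a gene. Members, lists and tests were chosen with earlier results of these data known, the probe difference score among them. Sequences came from the deposited table, and the Ftl1 position from RefSeq promoter windows, which held 7 of the 10 members. The numbers in the sample titles did not pair the arrays: the deviations of same-numbered arrays of different groups correlated at a median of -0.02 over 21 pairs, 3 of them over 0.1. Alternatives were all 16 arrays, the score, median scaling, each slide apart, no background correction, other detection filters, other eBayes settings, only the groups compared, the replicate number as a block, the authors' table, and each array left out.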

Additional observations from a re-analysis of the deposited data

Results flagged for a closer look

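In 4 of 68 sets of 4 arrays (a probe in a group), 1 array stood apart from the other 3 by Dixon's criterion, which chance reaches in about 1 in 20. Cp on SCI+CDTX 2, the array the authors excluded, was at 7.22 against 6.24 to 6.40 on the other SCI+CDTX arrays. Hp on Sham+CDTX 4 was at 9.09 with ILMN_2668510 (8.15 to 8.22 on the others) and at 9.84 with ILMN_2944824 (9.28 to 9.32). Slc40a1 on SCI+Saline 4 was at 8.30 against 7.70 to 7.74.

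The effect of cardiotoxin differed between SCI and sham mice, by limma's interaction term, for 4 genes in the fit of 15 arrays. That was 7 of 17 probes, against 23.6% of all tested probes. With the probe difference score as a covariate none of these 7 stayed called. Cd163, Hp ILMN_2944824 and Tfrc ILMN_2860804 were also not called with median scaling. Hmox1 differed by -1.91. Tfrc differed by 1.17 and 0.97 on its 2 probes, Cd163 by 1.40, and Hp by 1.97, 2.04 and 1.45 on its 3. For Hmox1 the difference lay in size, since it rose after both surgeries, and for Hp as well. For Tfrc the effect was lower than 0 after sham surgery and did not pass the test after SCI.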

How the results depend on the processing

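The counts of called member probes (12, 13, 9, 6 and 7 in the order of the report) stayed within 1.5 times under every alternative run except the probe difference score. With it SCI+CDTX against Sham+CDTX called 2 and the interaction 1, where 3.35% and 0.695% of all probes were called. The cause was not tested. With the score, 16 of the 85 probe values changed sign, 9 of them in SCI+CDTX against Sham+CDTX. Among these, Mb ILMN_1234662 and Mb ILMN_2954987 in SCI+CDTX against Sham+CDTX were called in the fit of 15 arrays (-0.95 and -0.71). With the score they were not called (0.51 and 0.58). The interaction of Mb ILMN_1234662 was called with the score (1.43) and not in the fit of 15 arrays (-0.12). With each array left out in turn, the counts ranged over 11 to 14, 12 to 14, 9 to 9, 6 to 7 and 6 to 8. With the replicate number as a block the counts were 12, 13, 9, 6 and 7, so the block changed none of them. Median scaling changed the share of higher among all called probes from 47.6% to 64.9%, 47.3% to 85.1%, 49.9% to 44.9%, 50.3% to 86.4% and 51% to 17.7%, and moved the median of all probes to 0.06, 0.32, -0.02, 0.17 and -0.24. With each slide normalized apart, the share of higher calls was 66.6% in SCI+CDTX against Sham+CDTX and 68.3% in SCI+Saline against Sham+Saline. Over single probes, the fits with an array left out kept a call in 701, lost it in 4 and gained one in 8, with no call either way in 562. The other alternatives with a test kept it in 434, lost it in 29 and gained one in 17, with none in 353. The authors' table gives ratios of group means with no test. With it, 31 of the 85 probe values moved by at least the probe's residual SD in the main fit. Probes near background (Ftl1, 1 of Cd163, Hmox1 and Slc11a1 in Sham+Saline) limit what can be read there.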
